A study of Mus musculus with 10 samples.

Results

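A set of 10 mRNAs that encode DDX6 and the proteins it works with in decapping and in P-bodies were followed in mouse embryonic stem cells (ESCs) that lack either microRNA (miRNA) biogenesis or DDX6 itself. The genes, chosen by symbol, were Ddx6, its partners Eif4enif1, Lsm14a, Lsm14b and Patl1, the decapping genes Dcp1a, Dcp2, Edc3 and Edc4, and the exonuclease gene Xrn1. All 10 were among the 11683 genes with enough reads to be tested, out of 51467 genes in the count table. The cells were grown in Knockout DMEM with 15% serum, LIF and 2i, which is the inhibitor pair PD0325901 and CHIR99021, and mRNA ends were sequenced with QuantSeq 3′ FWD. Wild-type cells (WT) gave 3 libraries, cells lacking DGCR8 (DGCR8 KO) gave 3, and cells lacking DDX6 (DDX6 KO) gave 4, with 2 clones sequenced 2 times each. DGCR8 is the partner of DROSHA in miRNA processing, and its knockout removes nearly all canonical miRNAs. According to the methods of the study, WT cells are the V6.5 line, the DGCR8 KO line was made earlier in the same laboratory, and both DDX6 KO clones were derived from V6.5 with SpCas9 and a guide at the start of exon 7, 1 clone carrying a single-base insertion and the other a large deletion. Nothing in the labels tells whether libraries of a group came from separate cultures, so p-values here measure the spread between libraries, which may be technical. Comparisons of genotypes count the 2 DDX6 KO clones as 4 libraries, and DGCR8 KO is 1 line. Differences between genotypes can therefore not be told apart from differences between the lines or clones.

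Decapping is the step at which the cap of an mRNA is removed by DCP2, which works with its activator DCP1 and with enhancers of decapping such as EDC3 and EDC4. The exposed end is then degraded by XRN1. DDX6 is a DEAD-box RNA helicase that joins this machinery to the CCR4-NOT deadenylase, which miRNAs recruit to their targets, and it also represses translation together with the eIF4E-binding protein 4E-T (Eif4enif1) and with LSM14 proteins. These proteins gather in P-bodies, cytoplasmic granules of repressed mRNA and decay factors.

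The site at which both clones were edited and the miRNA seeds whose matches were counted are shown first. Ddx6 lies on chromosome 9 of mm10 (44604892 to 44640731, plus strand) and its main coding transcript has 14 exons. The first 30 bases of coding exon 7, with coordinates and sequence from Gencode transcripts on GRCm38, carry in capitals the NGG motif that SpCas9 needs, directly after the bases the guide was designed to match.
Ddx6 exon 7 start, chr9:44626388-44626417, plus strand: tgcatgtggtgatcgctaccccTGGcagga
QuantSeq reads come from the end of the transcript, several exons away from this site, so the counts do not show the edit or the reading frame.

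ESCs express a family of miRNAs that share the seed AAGUGC and whose precursors are cut by DROSHA and DGCR8. No miRNA was measured in these libraries, and the study describes naive ESCs as negative for its miR-302 reporter. Mature sequences from RefSeq (GRCm38.p6) are given with bases 2 to 8 in capitals.
mmu-miR-294-3p: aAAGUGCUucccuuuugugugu
mmu-miR-302b-3p: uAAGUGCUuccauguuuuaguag
mmu-miR-17-5p: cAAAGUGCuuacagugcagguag
The seeds of miR-294-3p and miR-302b-3p are the same and pair with AGCACTT, whereas that of miR-17-5p is displaced by a base and pairs with GCACTTT. The 6 bases GCACTT belong to both matches. They were searched on the sense strand of the 3′ UTR of the main coding transcript, and an AGCACTT or GCACTTT match was counted among the GCACTT matches.

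Of the 10 mRNAs, 5 carried GCACTT, beside 32.4% of 10856 tested genes with a 3′ UTR. Dcp2 had the largest number, 6, in a 3′ UTR of 7240 bases, and 5 of them extended to AGCACTT. Of 1036 tested genes with a 3′ UTR between 0.5 and 2 times as long, 50.8% carried at least 1 AGCACTT and 0.386% carried as many as Dcp2. Xrn1 had 2 matches in a 3′ UTR of only 218 bases, both extending to GCACTTT. Among 2179 genes with a 3′ UTR between 0.5 and 2 times as long, 2.25% had any GCACTTT and 0.0918% had as many as Xrn1. The 2 sites of Xrn1 lie close to each other, and they are printed with GCACTT in capitals.
Xrn1 first site, chr9:96052925-96052954, plus strand: taagttaccagGCACTTttcatgctattta
Xrn1 second site, chr9:96052963-96052992, plus strand: tatcaaattgtGCACTTtaaatatgtgcaa
Ddx6, Edc3 and Lsm14b had 1 GCACTT each, with neither extension, and Dcp1a, Edc4, Eif4enif1, Lsm14a and Patl1 had none. Another coding transcript of Xrn1 has a longer 3′ UTR, of 4994 bases, with the same number of GCACTT and GCACTTT matches. Among 2152 tested genes with a 3′ UTR between 0.5 and 2 times that length, 36% had as many GCACTT and 7.2% as many GCACTTT, so the matches are uncommon only against the short 3′ UTR. These are matches of letters and not measured binding sites.

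The libraries held 2131156 to 4745083 reads over genes. Levels are given as CPM, reads of a gene scaled to a common normalised library total, and they are compared between libraries and not between genes. All 6 ESC markers (Pou5f1, Sox2, Nanog, Klf4, Esrrb, Zfp42) were detected in every group, with a summed level of 2457 to 3167 CPM, whereas the 4 markers of feeder fibroblasts together reached 2.04 to 9.52 CPM. Both sums were highest in DDX6 KO, at 3009 to 3167 and 4.57 to 9.52 CPM, without overlap with WT (2564 to 2769 and 3.12 to 4.32 CPM). The 6 ESC markers did not move together. In DDX6 KO 1 passed the test against WT, upward, and log2 fold changes ranged from -0.13 to 0.62. In DGCR8 KO 1 passed upward and 3 downward, with a range of -0.46 to 0.50. The 3 neuroectoderm markers (Sox1, Nes and Pax6), all tested and detected in every group, separated the genotypes, with a summed level of 54.2 to 85.9 CPM in WT, 33.6 to 43.99 CPM in DGCR8 KO and 87.7 to 132.9 CPM in DDX6 KO. The neuroectoderm markers did not move together either, since in DDX6 KO Sox1 rose (log2 fold change 1.37) and Nes fell (-0.90). In DGCR8 KO, where their sum was lowest, 1 of the 3 passed upward (2.58) and 2 downward. Markers of primitive endoderm, mesoderm and trophoblast overlapped between all groups, with sums of 0 to 20.2 CPM. The part of these marker differences in the values of the 10 genes was not tested. Both knockout lines had a chromosome on which genes moved together. The median gene of chromosome 8 stood 0.44 ± 0.06 (SD, n = 3) lower on the log2 scale in DGCR8 KO than in WT, and that of chromosome 6 stood 0.58 ± 0.06 (SD, n = 4) higher in DDX6 KO. Edc4 is on chromosome 8 and none of the 10 genes is on chromosome 6.

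Ddx6 mRNA was reduced in both clones, and by different amounts. The study reports that DDX6 protein was absent from both clones by western blot, so these amounts are of mRNA and not of protein. WT libraries held 505, 525 and 586 CPM of Ddx6, and DGCR8 KO libraries 521, 486 and 488 CPM. The 2 libraries of clone 1 held 149 and 135 CPM, and those of clone 2 held 39.1 and 25.8 CPM. WT and DGCR8 KO overlapped, both clones lay far below them, and the clones did not overlap with each other. In clone 1 the mean CPM of Ddx6 was 26.4% of the WT mean, and the fitted log2 fold change was -1.93 ± 0.13 (SE; adjusted p = 2.21e-07 by limma). In clone 2 the mean CPM was 6.02% of the WT mean, and the fitted log2 fold change was -4.11 ± 0.18 (SE; adjusted p = 2.39e-10). The difference between the clones was itself past the test (log2 difference -2.18, 95% interval -2.59 to -1.77, adjusted p = 3.10e-05). Counts behind these values were 408 and 387 reads in clone 1 and 111 and 92 reads in clone 2, so the remaining signal was well above the floor of 3 reads.

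Taken as 1 group of 4 libraries, DDX6 KO held 87.2 ± 63.8 CPM of Ddx6 (mean ± SD), a spread that is set by the clones. The log2 fold change against WT was then -3.05 with a 95% interval of -3.78 to -2.32. In DGCR8 KO, Ddx6 did not pass the test (log2 fold change -0.12, 95% interval -0.77 to 0.54, adjusted p = 0.80). That interval is wide because the clones also set the spread that the model gives to Ddx6. The low libraries are those the labels call DDX6 KO, and no other library was low.

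**Figure D1:**
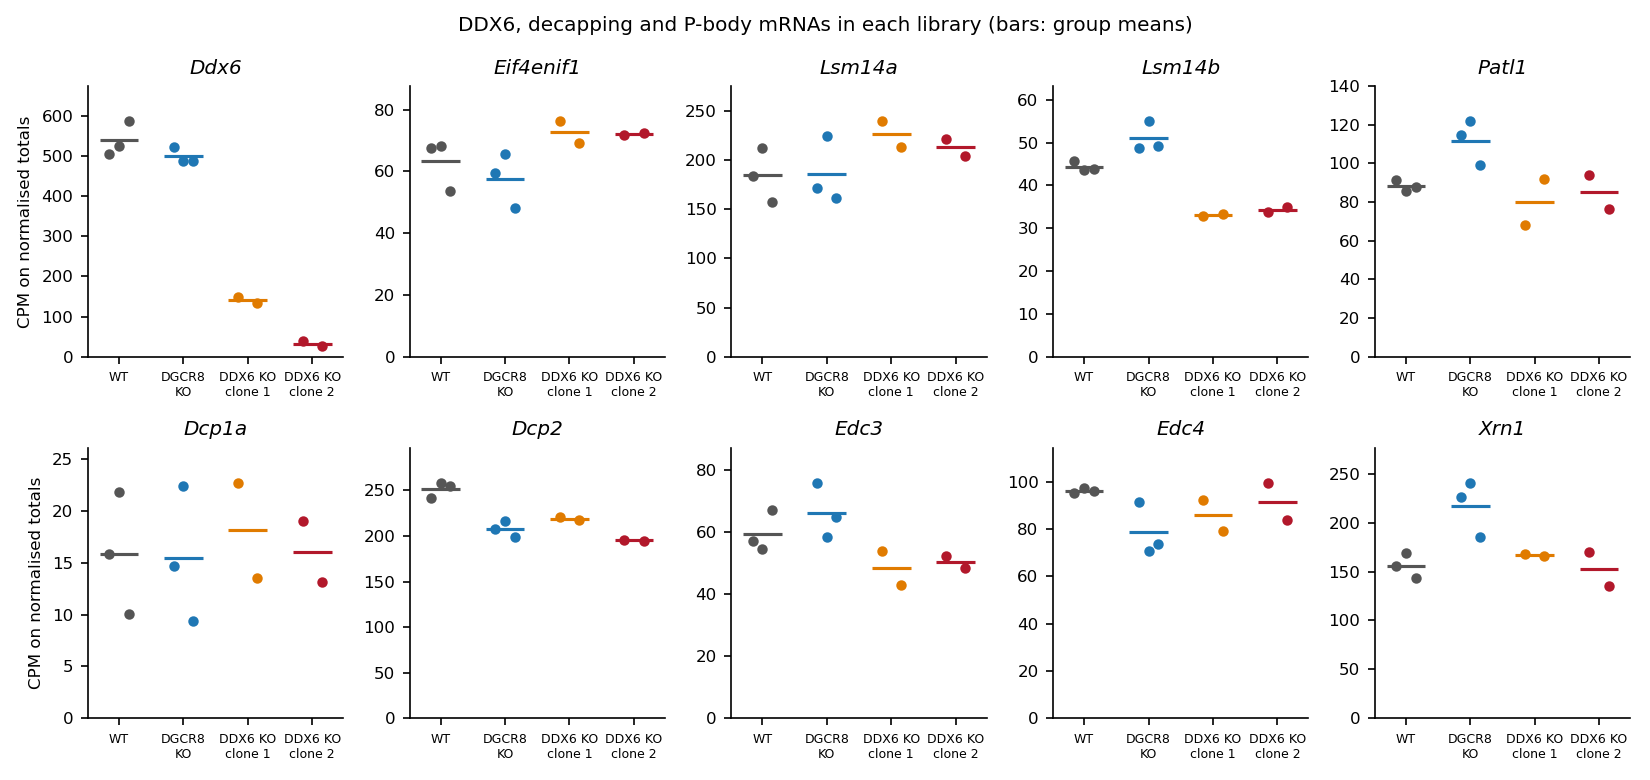
Level of each of the 10 mRNAs in CPM of normalised totals (vertical axis, from 0) in the 10 libraries, with 1 point a library and a bar at the group mean. Ddx6 falls from 505 to 586 CPM in WT to 25.8 to 149 CPM in the DDX6 KO clones, and in every other panel the clones lie near the WT level.

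Clone 2 differed from clone 1 in more than Ddx6. Of all tested genes 5 passed the test between the clones, which is 0.0428%, and Ddx6 was the only one of the 10 genes among them. The other 4, named here after their values were seen, were the Y-linked Uty, Ddx3y and Eif2s3y and the X-linked Rhox5. Ddx3y, the Y-linked DEAD-box paralogue of Ddx3x, held 135 and 146 CPM in clone 1 and 0.704 and 0.840 CPM in clone 2. The 3 Y-linked genes were at or near 0 in clone 2, while WT held 76.0 to 92.7 CPM of Ddx3y. The part of this difference in other differences between the clones was not tested. Same-numbered libraries of the clones were closer to each other (chi-square of counts per degree of freedom 2.53 and 3.54) than the 2 libraries of a clone (4.06 in clone 1 and 4.07 in clone 2). With replicate numbers as a block, 8 genes in place of 5 passed between the clones, and the log2 difference of Ddx6 was -2.17.

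Genes around Ddx6 were examined next. Within 500 kb of Ddx6, 33 other genes were tested, and in each clone 7 of them passed the test against WT, 5 higher and 2 lower. Of all tested genes, 23.8% passed in clone 1 and 24.6% in clone 2. The median log2 fold change of the 33 was -0.05 in clone 1 and 0.09 in clone 2, beside 0.03 and 0.02 for all tested genes. None of the 33 passed the test between the clones. The 2 lower genes, in DDX6 KO as a whole, were H2afx (log2 fold change -0.95) and Rps25 (-0.97), and both were also lower in DGCR8 KO (-1.30 and -0.57). Among the higher ones were Scn2b (2.28), Cd3d (1.03) and Phldb1 (0.96). The transcripts E030022I16Rik and Gm47234 lie inside the Ddx6 locus on the same strand, with at most 26 reads in any library. Ddx6 itself had 111 and 92 reads in clone 2. Neither shares a base with an exon of the main Ddx6 transcript. E030022I16Rik (44618253 to 44621018) lies between exon 4, which ends at 44614316, and exon 5, which starts at 44623619. Gm47234 (44634195 to 44635103) lies between exon 12, which ends at 44634194, and exon 13, which starts at 44635683. Reads of these transcripts are counted in rows of their own.

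**Figure D2:**
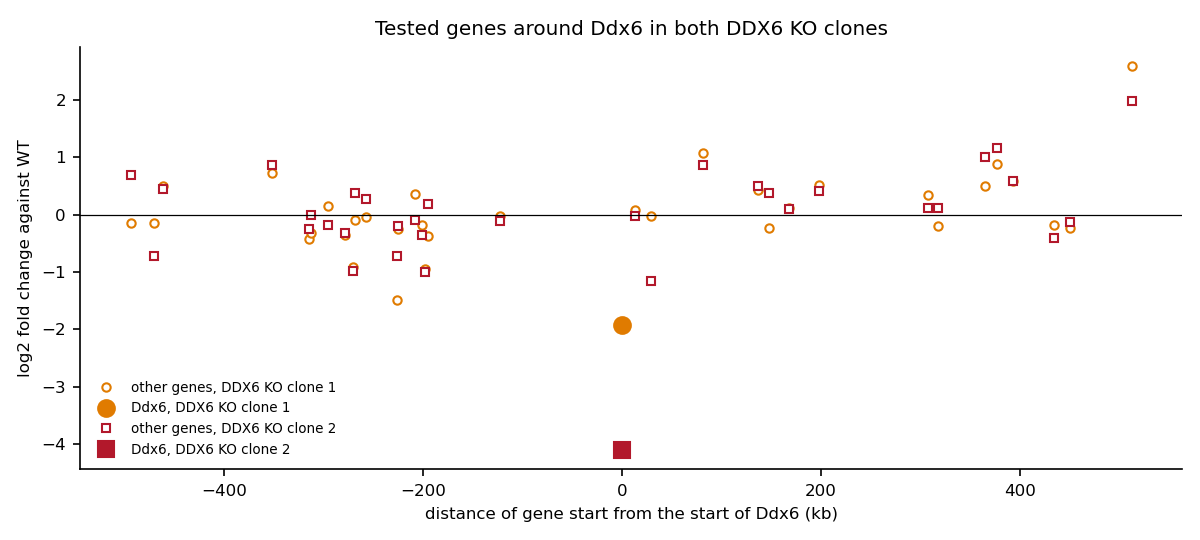
Log2 fold change against WT (vertical axis) of the tested genes around Ddx6, by the distance of their start from that of Ddx6 in kb (horizontal axis), in clone 1 (circles) and clone 2 (squares). Ddx6, drawn filled, stands at -1.93 and -4.11, below every other gene of the region in the same clone.

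The partners of DDX6 are described next. LSM14A and LSM14B are paralogous RNA-binding proteins that bind DDX6 and act in translational repression. Lsm14b (chromosome 2) held 45.6, 43.6 and 43.9 CPM in WT, and 33.0 and 33.4 CPM in clone 1 and 33.8 and 35.0 CPM in clone 2. DGCR8 KO libraries held 48.7, 55.0 and 49.3 CPM. The 3 genotypes did not overlap, with DDX6 KO lowest and DGCR8 KO highest. Lsm14b fell in DDX6 KO to 76.1% of the WT mean (log2 fold change -0.39 ± 0.13 SE, adjusted p = 0.029). In DGCR8 KO the log2 fold change against WT was 0.20 ± 0.13 (SE) and did not pass (adjusted p = 0.25). The 2 knockouts differed from each other by 0.59 ± 0.13 (SE; adjusted p = 0.0013). The fall against WT passed in 11 of 21 alternative settings, with adjusted p between 0.025 and 0.15, and was negative in all of them. It was lost on leaving out any 1 of the WT libraries, either clone 1 library or clone 2 replicate 1 (log2 fold change -0.40 to -0.37, adjusted p 0.054 to 0.077), and with scaling by total counts (-0.26, adjusted p = 0.13) or no filter (-0.39, adjusted p = 0.088). Neither clone passed alone as DDX6 KO (-0.40, adjusted p = 0.11 for clone 1, and -0.35, adjusted p = 0.15 for clone 2). The difference between the knockouts passed in all 19 settings tried for it.

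Lsm14a (chromosome 7) did not pass in either comparison with WT. Its levels were 184, 212 and 157 CPM in WT, 239 and 214 CPM in clone 1, and 221 and 204 CPM in clone 2. All 4 DDX6 KO libraries were above the WT mean, yet clone 2 overlapped with the highest WT library. The log2 fold change was 0.27 (95% interval 0.01 to 0.53, adjusted p = 0.10). It passed in 2 of 21 alternative settings, without WT replicate 2 (0.37, adjusted p = 0.046) and with scaling by total counts (0.39, adjusted p = 0.024). Over the 21 settings it ranged from 0.14 to 0.39, with adjusted p up to 0.49. In DGCR8 KO the levels of 171, 224 and 161 CPM spanned those of WT (log2 fold change 0.02, adjusted p = 0.93).

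The ratio of reads of the paralogues was also taken in each library. It was chosen after these values were seen, so it is given as a description with no test. It does not depend on how libraries are scaled. Lsm14b reads were 0.248, 0.206 and 0.279 of Lsm14a reads in WT, and 0.284, 0.245 and 0.306 in DGCR8 KO. In DDX6 KO the ratios were 0.138 and 0.156 in clone 1 and 0.153 and 0.171 in clone 2. Every DDX6 KO library lay below every WT and DGCR8 KO library. The difference from WT was -0.66 on the log2 scale in DDX6 KO and 0.19 in DGCR8 KO, where the libraries overlapped with WT.

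**Figure D3:**
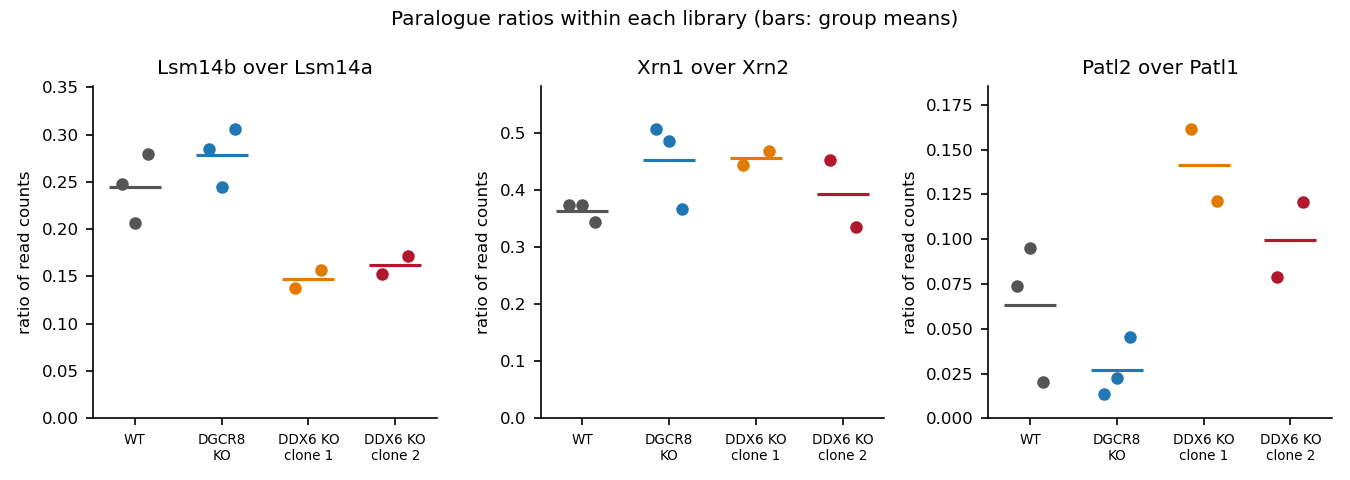
Ratio of read counts of 3 paralogue pairs (vertical axes, from 0) in the 10 libraries, with 1 point a library and a bar at the group mean. Lsm14b over Lsm14a lies between 0.138 and 0.171 in the DDX6 KO clones and between 0.206 and 0.306 elsewhere, whereas the libraries of WT and DDX6 KO overlap for Xrn1 over Xrn2 and for Patl2 over Patl1.

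Eif4enif1 (chromosome 11) encodes 4E-T, which binds both the cap-binding protein eIF4E and DDX6 and is needed to form P-bodies. It held 67.7, 68.2 and 53.7 CPM in WT, 76.2 and 69.2 CPM in clone 1, and 71.8 and 72.5 CPM in clone 2. Every DDX6 KO library was above every WT library, but the lowest and highest were only a few CPM apart, and the log2 fold change of 0.23 did not pass (95% interval -0.05 to 0.50, adjusted p = 0.20). It ranged from 0.08 to 0.35 over 21 alternative settings and passed in none of them. DGCR8 KO libraries, at 59.4, 65.5 and 48.1 CPM, overlapped with WT (log2 fold change -0.10, adjusted p = 0.62). Against DDX6 KO they were lower without overlap, with a log2 difference of -0.33 ± 0.14 (SE) that missed the test (adjusted p = 0.057) and passed under 6 of 19 alternatives.

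Patl1 (chromosome 19) encodes a scaffold that bridges DDX6 and the decapping complex. Its levels were 91.2, 85.9 and 88.1 CPM in WT and 115, 122 and 99.0 CPM in DGCR8 KO, without overlap. Clone 1 held 68.1 and 91.8 CPM and clone 2 93.9 and 76.4 CPM, on both sides of the WT values. The log2 fold change was 0.34 ± 0.13 (SE) in DGCR8 KO, just short of the test (adjusted p = 0.055). It passed in 2 of 19 alternative settings, with replicate numbers as a block (adjusted p = 0.039) and without DGCR8 KO replicate 3 (0.42, adjusted p = 0.028). Over the 19 settings it ranged from 0.28 to 0.42, with adjusted p up to 0.15. In DDX6 KO it was -0.11 (adjusted p = 0.55), and the knockouts differed by 0.45 ± 0.13 (SE; adjusted p = 0.0077).

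The paralogue Patl2 (chromosome 2) was weakly expressed. It held 6.72, 8.18 and 1.78 CPM in WT, 1.53, 2.71 and 4.48 CPM in DGCR8 KO, and 10.99, 11.1, 7.39 and 9.23 CPM in DDX6 KO, in the order clone 1 then clone 2. Its log2 fold change of 1.26 ± 0.42 (SE) in DDX6 KO passed the test (adjusted p = 0.026), although WT and DDX6 KO libraries overlapped and the gene rests on 5 to 33 reads a library. The ratio of Patl2 to Patl1 reads likewise overlapped between WT and DDX6 KO. In DGCR8 KO the log2 fold change of Patl2 was -0.57 (adjusted p = 0.47).

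Among the decapping genes, Dcp2, which encodes the catalytic subunit, was lower in both knockouts. Dcp2 (chromosome 18) held 242, 258 and 255 CPM in WT. DGCR8 KO libraries held 208, 216 and 199 CPM, and DDX6 KO libraries 221 and 217 CPM in clone 1 and 196 and 194 CPM in clone 2. Neither knockout overlapped with WT, and the knockouts overlapped with each other. The log2 fold change was -0.28 ± 0.10 (SE, adjusted p = 0.037) in DGCR8 KO and -0.29 ± 0.09 (SE, adjusted p = 0.024) in DDX6 KO. Both comparisons share the WT libraries, so they are not independent. Between the knockouts the log2 difference was 0.01, with a 95% interval of -0.19 to 0.21. By clone, the fold change passed in clone 2 (-0.37 ± 0.11 SE, adjusted p = 0.022) and was -0.20 ± 0.11 in clone 1 (adjusted p = 0.20), and the difference between the clones was -0.17 (95% interval -0.42 to 0.09). Dcp2 is also the member with 5 AGCACTT matches, and its level in the cells without DGCR8 was 82.6% of WT. The call passed in 15 of 19 alternative settings in DGCR8 KO and in 15 of 21 in DDX6 KO, and leaving out 1 library was enough to lose either. In DGCR8 KO it was lost without WT replicate 2 or 3 or DGCR8 KO replicate 1 or 3 (log2 fold change -0.28 to -0.25, adjusted p 0.083 to 0.097), and in DDX6 KO without WT replicate 2 or 3 or either clone 2 library (-0.28 to -0.25, adjusted p 0.063 to 0.079), with scaling by total counts (-0.165, adjusted p = 0.17), and with clone 1 alone (-0.19, adjusted p = 0.24).

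Dcp1a (chromosome 14), which encodes the activator of DCP2, varied widely within each group. Its levels were 15.8, 21.8 and 10.03 CPM in WT, 14.7, 22.4 and 9.37 CPM in DGCR8 KO, 22.7 and 13.6 CPM in clone 1, and 19.0 and 13.2 CPM in clone 2. All groups overlapped, and in WT and DGCR8 KO alike replicate 2 was highest and replicate 3 lowest. It rests on 23 to 66 reads a library, and its 95% intervals reached from -0.63 to 0.75 in DGCR8 KO and from -0.42 to 0.82 in DDX6 KO. With replicate numbers as a block they reached from -0.60 to 0.43 and from -0.73 to 0.32. In both fits the intervals held 0 as well as changes of the size seen for Lsm14b and Dcp2. Its paralogue Dcp1b (chromosome 6) had 0 to 8 reads a library and was not tested. WT libraries held 1, 3 and 8 reads of Dcp1b, DGCR8 KO libraries 6, 7 and 3, clone 1 libraries 2 and 0, and clone 2 libraries 5 and 3.

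Edc3 (chromosome 9), whose product binds DDX6 and DCP2, held 57.1, 54.5 and 67.1 CPM in WT and 75.9, 58.4 and 64.8 CPM in DGCR8 KO. Clone 1 held 53.8 and 43.1 CPM and clone 2 52.4 and 48.4 CPM, all below the lowest WT library. The log2 fold change was -0.29 in DDX6 KO (95% interval -0.58 to 0.01, adjusted p = 0.12) and 0.14 in DGCR8 KO (adjusted p = 0.48). The direct difference between the knockouts, 0.43 ± 0.14 (SE), passed the test (adjusted p = 0.018) and did so in 15 of 19 alternative settings. It was lost without DGCR8 KO replicate 1 (0.31, adjusted p = 0.13) or clone 1 replicate 2 (0.36, adjusted p = 0.060), with scaling by total counts (0.30, adjusted p = 0.085) and with no filter (0.40, adjusted p = 0.066).

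Edc4 (chromosome 8), the scaffold of the metazoan decapping complex, held 95.1, 97.5 and 96.1 CPM in WT and 91.6, 70.6 and 73.7 CPM in DGCR8 KO. The DDX6 KO clones held 92.3, 79.3, 99.6 and 83.7 CPM, around the WT values. In DGCR8 KO the log2 fold change was -0.29 ± 0.13 (SE; adjusted p = 0.089). It passed in 2 of 19 alternative settings, with replicate numbers as a block (adjusted p = 0.043) and without DGCR8 KO replicate 1 (-0.42, adjusted p = 0.037). Over the 19 settings it ranged from -0.42 to -0.21, with adjusted p up to 0.27. The value of -0.29 is smaller in size than the median shift of chromosome 8 in the same libraries, which ranged from -0.51 to -0.38. The part of that shift in the value of Edc4 was not tested. In DDX6 KO the log2 fold change was -0.13 (adjusted p = 0.45).

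Xrn1 (chromosome 9) encodes the exonuclease that degrades decapped mRNA, and it rose in DGCR8 KO. WT libraries held 156, 169 and 143 CPM, and DGCR8 KO libraries 226, 241 and 185 CPM. Clone 1 held 168 and 166 CPM and clone 2 170 and 135 CPM. DGCR8 KO lay above all other libraries, while DDX6 KO overlapped with WT. The level in DGCR8 KO was 139% of the WT mean (log2 fold change 0.48 ± 0.13 SE, adjusted p = 0.0056), in DDX6 KO the log2 fold change was 0.03 (95% interval -0.22 to 0.28), and the knockouts differed by 0.45 ± 0.12 (SE; adjusted p = 0.0046). The rise passed in all 19 alternative settings tried for it, with a log2 fold change between 0.41 and 0.59. The median gene of chromosome 9 moved by 0.03 ± 0.03 (SD, n = 3) in DGCR8 KO. Xrn1 with its 2 GCACTTT matches and Dcp2 with its 5 AGCACTT matches moved in opposite directions.

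The nuclear paralogue Xrn2 held 416, 452 and 418 CPM in WT, 446, 495 and 504 CPM in DGCR8 KO, and 379, 354, 376 and 404 CPM in DDX6 KO. Its log2 fold changes, 0.17 in DGCR8 KO (adjusted p = 0.18) and -0.18 in DDX6 KO (adjusted p = 0.13), did not pass against WT, and the knockouts differed by 0.35 ± 0.09 (SE; adjusted p = 0.0041). Libraries of WT and DGCR8 KO overlapped in the ratio of Xrn1 to Xrn2 reads (0.343 to 0.374 against 0.367 to 0.506).

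Counted over the 10 genes, 2 passed the test in DGCR8 KO against WT, Xrn1 upward and Dcp2 downward, where 36.3% of all tested genes passed. In the fit with replicate numbers as a block the count was 4, with Patl1 and Edc4 added. In DDX6 KO against WT 3 passed, Ddx6, Lsm14b and Dcp2, all downward, where 34.5% of all tested genes passed. Between the knockouts 5 passed, Ddx6, Lsm14b, Xrn1, Patl1 and Edc3, all higher in DGCR8 KO, where 44.0% of all tested genes passed and 23.0% passed in that direction. Taken by clone, 1 passed in clone 1 (Ddx6, beside 23.8% of all tested genes) and 2 in clone 2 (Ddx6 and Dcp2, beside 24.6%). Libraries did not overlap for 5 of the 10 in DGCR8 KO against WT, 5 in DDX6 KO against WT, 6 between the knockouts and 3 between the clones, beside 44.8%, 39.9%, 45.8% and 31.8% of all tested genes. Leaving out Ddx6, which is the edited gene, 2 of the other 9 passed in DDX6 KO against WT. In both comparisons with WT the shares of the 10 that passed were below those of all genes. The shares without overlap were near or above those of all genes. Without WT replicate 3, 1 member passed in each of the comparisons with WT, Xrn1 in DGCR8 KO and Ddx6 in DDX6 KO. The count in DGCR8 KO was also 1 without WT replicate 2, and that in DDX6 KO was also 1 without clone 2 replicate 1 and with clone 1 alone. No gene other than Ddx6 passed with a log2 fold change beyond 1, a size that 14.7% of all tested genes exceeded with a passing test in DGCR8 KO, 11.2% in DDX6 KO and 17.1% between the knockouts.

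Leaving out Ddx6, the other 9 genes ranged from -0.29 to 0.48 on the log2 scale in DGCR8 KO and from -0.39 to 0.27 in DDX6 KO. Their medians were 0.06 and -0.11, beside 0.00 and 0.02 over all tested genes. None of the 9 rose in DDX6 KO by the test, and the upper ends of the 95% intervals stayed at or below 0.53 for all of them but Dcp1a, for which it was 0.82. Between the clones the 9 ranged from -0.17 to 0.09, none passed, and apart from Dcp1a their 95% intervals lay within -0.48 to 0.47. The clones, which differ in remaining Ddx6, were thus not shown to differ in any of these 9 genes, and differences under those limits could not be seen with 2 libraries a clone.

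**Figure D4:**
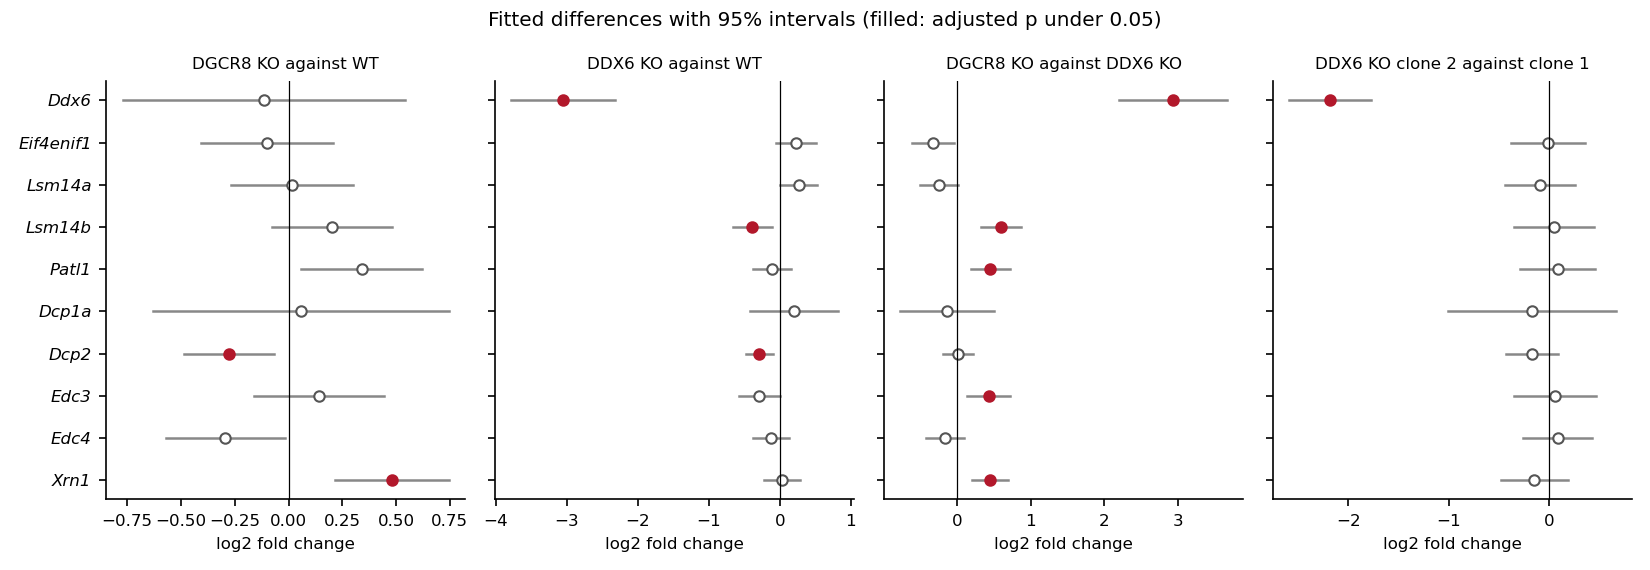
Fitted log2 fold change of the 10 genes (horizontal axes, with a scale of their own in each panel) in 4 comparisons, with 95% intervals as lines and an adjusted p under 0.05 as filled points. Apart from Ddx6, which stands at -3.05, 2.94 and -2.18 in the last 3 panels, all points lie between -0.39 and 0.59.

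No member followed Ddx6 closely across the 10 libraries. The Pearson correlation of log2 CPM with Ddx6 was highest for Lsm14b (0.80) and lowest for Eif4enif1 (-0.60). The 5 genes most like Ddx6 among all tested were Mettl25 (0.97), Ttl (0.97), Saal1 (0.96), Rgs9 (0.96) and Scnm1 (0.95), none of them a member. Mean levels of Saal1 were 77.1 CPM in WT, 72.3 CPM in DGCR8 KO, 38.6 CPM in clone 1 and 30.3 CPM in clone 2. These correlations describe 10 points that fall into groups by genotype and clone, picked as the highest of all tested genes.

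The wider machinery was summarised from lists of genes with related functions. Of 22 tested genes among 23 others in decapping and P-bodies, 3 were higher and 6 lower in DGCR8 KO. In DDX6 KO 5 were higher and 7 lower, and the 5 include Nudt16, which reached the filter of 3 CPM in DDX6 KO libraries only. Of all tested genes, 19.9% were higher and 16.5% lower in DGCR8 KO, and 17.9% higher and 16.6% lower in DDX6 KO. The median log2 fold change of the list was 0.03 in DGCR8 KO and -0.21 in DDX6 KO. With scaling by total counts 5 were higher and 5 lower in DDX6 KO, with a median of -0.08. Without WT replicate 3, 2 were higher and 3 lower in DDX6 KO, where 2631 of all tested genes passed in place of 4032. The helicase gene Mov10, whose product works with Argonaute, rose from 32.7 to 41.8 CPM in WT to 135 to 163 CPM in DGCR8 KO (log2 fold change 2.06 ± 0.14 SE, adjusted p = 4.84e-09). The next in size, Lsm6 (-1.16), Lsm5 (-1.03) and Lsm4 (-1.03), fell in DGCR8 KO and encode subunits of the LSM ring that binds mRNA ends and activates decapping. Counted after their values were seen, 6 of the 7 ring genes (Lsm1 to Lsm7) were lower in DGCR8 KO, and in DDX6 KO 3 were lower and 1 higher. The exception in DGCR8 KO was Lsm7 (0.18, adjusted p = 0.80), and Pnrc1, a decapping cofactor gene outside the ring, rose there (0.84). Lsm6, Lsm4 and Lsm1 (-0.79) are on chromosome 8, whose median was lowered in DGCR8 KO. In DDX6 KO, where the median of chromosome 8 stood at -0.01, Lsm4 (-0.43) and Lsm6 (-0.37) were lower and Lsm1 was not (0.06). On chromosome 6, whose median was raised by 0.58 in DDX6 KO and stood at 0.07 in DGCR8 KO, Lsm5 rose in DDX6 KO (0.57 ± 0.15 SE), and Lsm3 did not (0.04) but fell in DGCR8 KO (-0.48). The part of the chromosome shifts in these values was not tested.

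In DDX6 KO the list also held Pan3, a subunit of the PAN2-PAN3 deadenylase, which fell by 0.60 on the log2 scale (adjusted p = 0.012). Nudt16, which encodes another decapping enzyme, passed upward on very few reads. It had 3, 0 and 0 reads in WT and 12, 13, 11 and 13 in DDX6 KO, so no fold is given. Its levels were at most 1.44 CPM in WT, at most 1.70 CPM in DGCR8 KO, and 3.64 to 4.52 CPM in DDX6 KO. Nudt16 was thus tested only because it is high in DDX6 KO, and its call there carries no weight.

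Genes of 3′-to-5′ decay, the exosome and its SKI cofactors, were counted in the same way. Of 16 tested out of 17, 6 were lower and 1 higher in DDX6 KO, and in DGCR8 KO 1 was lower and none higher, beside the shares of all tested genes given above. Those lower included the exosome genes Exosc4 (-0.82), Exosc5 (-0.63) and Exosc10 (-0.54), and the higher one was Skiv2l (0.77 ± 0.21 SE, adjusted p = 0.0079), the helicase of the SKI complex. In DGCR8 KO the lower gene was Exosc9 (-0.63 ± 0.11 SE, adjusted p = 2.41e-04). The median log2 fold change of the list was -0.14 in DDX6 KO and -0.12 in DGCR8 KO. With scaling by total counts, 4 were lower and 2 higher in DDX6 KO and the median was -0.02. Without WT replicate 3, 2 were lower and 0 higher in DDX6 KO. With clone 1 alone 3 were lower and 1 higher, and with clone 2 alone 1 was lower and 0 higher. Fewer of all tested genes passed in these 3 settings too (2631, 2547 and 2569, in place of 4032).

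Among the DEAD-box helicases other than Ddx6, 38 of 39 were tested. In DDX6 KO 2 were higher and 10 lower, with a median log2 fold change of -0.16, and in DGCR8 KO 5 were higher and 10 lower, with a median of -0.15. The shares over all tested genes were 17.9% higher and 16.6% lower in DDX6 KO, and 19.9% and 16.5% in DGCR8 KO. With scaling by total counts, which raised the median of all genes by 0.123 in DDX6 KO, 5 helicase genes were higher and 9 lower there, with a median of -0.04. The germ-cell helicase gene Ddx4 rose in DDX6 KO from 8.70 to 17.4 CPM in WT to 37.4 to 51.7 CPM (log2 fold change 2.02 ± 0.24 SE, adjusted p = 6.12e-06). Ddx18 and Ddx49 fell by 0.68 and 0.57. Of the 2 higher genes in DDX6 KO, 1 was on chromosome 6, whose median was raised there, and the part of that shift was not tested. In DGCR8 KO the largest changes were those of Ddx25 (-2.25), the RIG-I gene Ddx58 (1.69), Ddx19b (-1.23) and Ddx3x (0.95), and 4 of the 10 lower genes were on chromosome 8, Ddx19b among them. The apparent fall of Ddx3y in DDX6 KO (-3.05), counted among the 10 lower genes there, came from clone 2 alone. Clone 1 held 135 and 146 CPM of it, above the 76.0 to 92.7 CPM of WT.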

How the data were processed

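The authors trimmed reads with cutadapt 1.14, aligned them to mm10 with STAR 2.5.3a keeping unique alignments, and counted sense-strand reads per gene with featureCounts 1.5.3 on Gencode vM14, with 92 spike-ins added and ribosomal RNA removed. The deposited values are raw counts. The 51467 gene rows were used and spike-in rows (1.1% to 2.36% of counts) were set apart. No molecular identifiers are stated, so floors (3 reads, 0.666 to 1.43 CPM) cover counting error only.

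Genes reaching 3 CPM in 3 or more libraries were fitted with limma 3.58.1 (voom weights, TMM factors from edgeR 4.0.16, R 4.3.3) in 1 model over 10 libraries by genotype, and in a second with a level for each clone. The study used limma, and its transformation of counts is not given in the sources used here. Adjusted p-values are Benjamini-Hochberg over all 11683 genes, two-sided, and a gene passed under 0.05. CPM values use normalised totals. The fitting code was tested on simulated data. The 10 genes, the lists and the rule for named genes were chosen with earlier results of these data known. The rule took all members, their paralogues, the 4 largest passing changes per list and comparison, and the 5 genes most correlated with Ddx6.

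No 2 libraries were counted as 1, since counts of replicates differed by more than sampling noise. Same-numbered WT and DGCR8 KO libraries deviated together from their group means (correlations 0.145, 0.267 and 0.285 over genes). Replicate numbers may thus pair these 2 groups. The correlation was also 0.199 between the clones, where 2 numbers are too few to settle a pairing. Between WT and the clones it was 0.0108 to 0.162. The main fits use no pairing, so their SE and p-values are unpaired. The replicate block, given as an alternative, treats a number as shared by all groups, DDX6 KO included. Alternatives were edgeR's quasi-likelihood test, DESeq2 1.42.0, limma-trend, other scalings and filters, a replicate block and leaving out each library.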

Additional observations from a re-analysis of the deposited data

Results flagged for a closer look

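Among the 4 DDX6 KO libraries, Xrn1 was set apart in 1 library, clone 2 replicate 2, at 135 CPM against 166 to 170 CPM in the other three. The gap took up 0.866 of the range of the 4 libraries. None of the other genes among the 10 had a DDX6 KO library set apart in this way, and chance marks about 1 group in 20.

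Ddx6 differed between the clones by -2.18 on the log2 scale and between DGCR8 KO and DDX6 KO by 2.94. Lsm14b (0.59), Patl1 (0.45), Xrn1 (0.45) and Edc3 (0.43) also differed between DGCR8 KO and DDX6 KO by the direct test, each being higher in DGCR8 KO. For Lsm14b the difference from WT passed in DDX6 KO and not in DGCR8 KO, for Xrn1 it passed in DGCR8 KO and not in DDX6 KO, and for Patl1 and Edc3 in neither.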

How the results depend on the processing

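Of 666 alternative values for 34 results on single members, 595 kept their direction and their side of the threshold, 29 lost significance, 14 gained it and 28 changed sign, none of the latter past the test. With an added limit of 1 on the log2 fold change, the members passing were 0 in DGCR8 KO against WT, and 1 (Ddx6) in DDX6 KO against WT, between the knockouts and in clone 2 against WT. With total counts as scaling, 1 member passed in clone 2 against WT, and with clone 1 alone 1 passed in DDX6 KO against WT. The replicate block gave 4 members in DGCR8 KO against WT and changed no other count of members. Between the clones it gave 8 passing genes of all tested in place of 5. Leaving out 1 library gave 1 to 2 members in DGCR8 KO against WT, 1 to 3 in DDX6 KO against WT, and 1 to 2 in clone 2 against WT. Scaling by total counts moved the median of all genes by 0.123 in DDX6 KO against WT, and the share of passing genes that were higher from 51.8% to 67.5%, and by -0.128 between the knockouts (52.3% to 38.8%). It left Lsm14b at -0.26 in DDX6 KO, no longer passing. Without WT replicate 3 the passing genes in DDX6 KO against WT fell from 4032 to 2631, and with clone 1 or clone 2 alone to 2547 or 2569. The causes were not tested.

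The values that changed sign were as follows. In DGCR8 KO against WT, Dcp1a gave -0.033 in DESeq2, -0.053 in limma-trend and -0.089 with the replicate block, and -0.35 to 0.34 without 1 library. Lsm14a gave -0.0071 in DESeq2, -0.0037 with median-of-ratios factors and -0.014 with TMM without chromosomes 6 and 8, and -0.12 to 0.12 without 1 library, and Eif4enif1 gave -0.24 to 0.015. In DDX6 KO against WT, Patl1 gave 0.014 with total counts, Xrn1 gave -0.063 with the replicate block, -0.024 with clone 2 alone and -0.037 to 0.12 without 1 library, and Dcp1a gave -0.21 with the replicate block and -0.21 to 0.48 without 1 library. Between the knockouts, Dcp1a gave 0.12 with the replicate block and -0.43 to 0.13 without 1 library. There Dcp2 gave -0.0069 in DESeq2, -0.0043 with median-of-ratios factors, -0.12 with total counts, -0.050 with TMM without chromosomes 6 and 8, -0.011 with no filter, -0.019 with a filter of 10 CPM, and -0.033 to 0.040 without 1 library. The ratio of Lsm14b to Lsm14a in DDX6 KO against WT stayed between -0.77 and -0.55 without 1 library. With 2 libraries a clone, depth and number of libraries limit the comparison of the clones.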
